A study of Mus musculus with 6 samples.

Results

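Melanin pigment genes were followed here in retinal RNA of prCAD -/- mice, knockouts of Cdhr1, the gene of photoreceptor cadherin, and of wild type mice of strain 129. The 8 genes were taken by name as Tyr, Tyrp1, Dct, Mlana, Oca2, Slc45a2, Gpr143 and Mitf. Every probe set whose only gene symbol in the platform annotation is one of them was kept, which gave 14 probe sets of the 45037 that were tested. There were 3 single-colour arrays of prCAD mutant retina and 3 of wild type retina, from mice about 4 weeks old, and each array held RNA pooled from the retinas of 3 mice. The labels name neither the substrain of the 129 mice nor the strain of the mutants, so a difference between the strains and an effect of the genotype cannot be told apart in any gene below. Because RNA was pooled, the spread between arrays is one between pools, and the number of arrays limits the precision of every value.

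Melanin is made in melanosomes, organelles related to lysosomes, from tyrosine. Tyr, tyrosinase, catalyses the first and rate-limiting steps, Dct converts dopachrome, and Tyrp1 acts later in the synthesis of the dark eumelanin in the mouse. In the mouse eye the pigment lies in the retinal pigment epithelium, which faces the outer segments of the photoreceptors, in the pigmented epithelia of ciliary body and iris, and in melanocytes of the choroid, and the neural retina makes none. Dct, Tyrp1, Tyr and Mlana are known targets of Mitf, a transcription factor of pigment cells that binds the sequence CATGTG. Recessive alleles at Oca2 and Tyr dilute pigment in some 129 substrains.

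The labels held for the targeted gene and for the tissue. The probe set of Cdhr1 read 4.16 ± 0.20 in prCAD mutant arrays and 11.22 ± 0.21 in wild type arrays (SD, n = 3 each) on the log2 scale, so it fell by 7.06 (SE 0.15, limma, adjusted p = 2.18e-05). Rod photoreceptor markers averaged 10.84 to 11.07 over 8 genes in mutant arrays and 10.99 to 11.21 in wild type arrays. Wild type replicate 3 read low in lens markers, which averaged 9.01 there, and in markers of the pigment epithelium, at 5.13. The limma test on group alone, adjusted by Benjamini-Hochberg over all probe sets, called 5 of them, which is 0.0111%, and 15 (0.0333%) when the replicate number was added as a block.

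RefSeq's promoter table (GRCm38.p6) held 5 of the 8 genes: Tyr, Tyrp1, Dct, Oca2 and Mitf. In the 250 bases before the annotated start, TCATGTG, which contains CATGTG, was found in Tyr, Tyrp1 and Dct on the strand of the gene. The pigment enzymes are shown because all of them carry this motif. The motif is in capitals, and in Dct also its form on the opposite strand, CACATGA.
Tyr (chr7:87493513-87493762, minus strand): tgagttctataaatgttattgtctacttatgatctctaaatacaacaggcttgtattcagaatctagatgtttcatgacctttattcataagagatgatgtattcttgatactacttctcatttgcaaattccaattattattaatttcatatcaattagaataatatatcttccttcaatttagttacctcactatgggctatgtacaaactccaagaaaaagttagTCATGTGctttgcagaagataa
Tyrp1 (chr4:80833963-80834212, plus strand): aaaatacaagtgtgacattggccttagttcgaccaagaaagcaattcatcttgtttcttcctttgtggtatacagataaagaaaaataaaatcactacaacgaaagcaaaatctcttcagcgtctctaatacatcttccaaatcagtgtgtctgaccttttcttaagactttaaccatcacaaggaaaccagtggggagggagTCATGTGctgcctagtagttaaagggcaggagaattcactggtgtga
Dct (chr14:118052247-118052496, minus strand): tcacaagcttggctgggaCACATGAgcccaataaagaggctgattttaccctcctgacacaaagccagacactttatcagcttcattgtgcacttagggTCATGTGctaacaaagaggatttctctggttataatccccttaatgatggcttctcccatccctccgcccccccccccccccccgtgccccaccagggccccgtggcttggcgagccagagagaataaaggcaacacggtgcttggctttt
The first base of the motif lay 22 bases before the start in Tyr, 47 in Tyrp1 and 151 in Dct, with the opposite form of Dct at 232. Searched on both strands, TCATGTG was in 3.25% and CATGTG in 12.3% of 32851 windows of this length. The window of Oca2 held CATGTG on the opposite strand, its first base 186 bases before the start, and the 3 windows of Mitf held neither form. These matches describe letters and not bound sites.

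Across the 14 probe sets, 13 had a higher mean in prCAD mutant than in wild type arrays, where 53.6% of all probe sets did. The groups did not overlap at 8 of them, all higher in the mutant, against 4.73% of all probe sets. At an unadjusted p under 0.05 there were 7, all higher, against 1.68% of all probe sets, but 0 passed the adjusted test. With the replicate block 0 passed as well, and 6 had an unadjusted p under 0.05 on the higher side, against 3.77% of all probe sets. In all 3 pairs of same-numbered arrays 10 were higher, against 17.0% of all probe sets. Without both arrays of replicate 3 the groups did not overlap at 11, against 20.4% of all probe sets. The differences were between 0.68 and 1.02 at the probe sets of Dct, Mlana and Tyrp1 and at most 0.26 in the other 5 genes. In such bulk samples more cells of a type and more RNA per cell cannot be told apart.

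**Figure D1:**
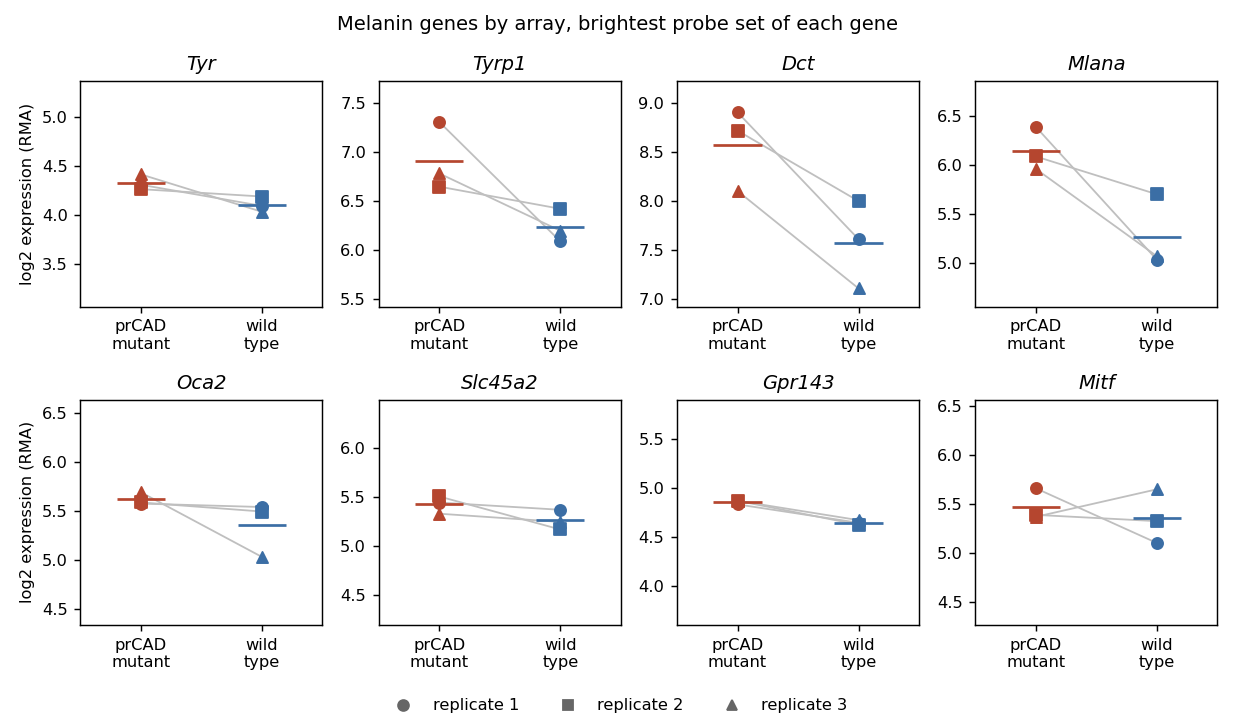
Log2 expression of the brightest probe set of each melanin gene in the 3 prCAD mutant arrays and the 3 wild type arrays, with grey lines joining arrays of the same replicate number, horizontal bars at the group means and axes that all span the same range. Dct, Mlana and Tyrp1 have the largest differences, higher in the mutant arrays without overlap, though the gap between the groups is only 0.10 in Dct. Gpr143, Tyr and Oca2 differ little but without overlap, and Slc45a2 and Mitf overlap.

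Among the enzymes, Dct, dopachrome tautomerase, read 8.90, 8.72 and 8.10 in mutant replicates 1, 2 and 3, against 7.61, 8.0 and 7.11 in wild type replicates 1, 2 and 3. The lowest mutant array stood 0.10 above the highest wild type array. The difference was 1.00 (SE 0.28, unadjusted p = 0.00863, adjusted p = 0.9999, limma), or 2.00-fold, and an exact permutation test gave p = 0.1, two-sided, the smallest that 3 against 3 arrays allow. Both groups were lowest in replicate 3, and the SE with the replicate block was 0.12. Within pairs the differences were 1.30, 0.72 and 0.99, and the replicate block gave an unadjusted p of 1.49e-04 and an adjusted p of 0.107, the lowest among its alternatives, which ran up to 1.

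Tyrp1, tyrosinase-related protein, has 3 probe sets, and the groups did not overlap at any of them. At the brightest, 1439409_x_at, it read 7.30, 6.64 and 6.78 in mutant arrays, against 6.09, 6.42 and 6.19 in wild type arrays. The difference was 0.68 (SE 0.19, unadjusted p = 0.00838, adjusted p = 0.9999, limma). At 1415862_at the values were 6.96, 6.42 and 6.96 in mutant arrays, against 5.55, 6.18 and 5.95 in wild type arrays, which differ by 0.89 (SE 0.21). Pair 1 held the largest difference at all 3 probe sets. At 1415861_at mutant arrays read 7.20, 6.68 and 5.95 and wild type arrays 5.63, 5.92 and 5.23, a difference of 1.02 (SE 0.32), and here mutant replicate 3 lay only 0.04 above the highest wild type array. Within pairs the brightest probe set differed by 1.22, 0.23 and 0.59.

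Tyr itself was dim. Its 3 probe sets had means of 4.33, 3.93 and 2.77 in mutant arrays and 4.10, 3.76 and 2.69 in wild type arrays, all below 4.76, the median over all probe sets. The deposited values carry no detection calls, and background limits what can be seen at such levels. At the brightest of them, 1417717_a_at, the arrays read 4.31, 4.26 and 4.41 in the mutant and 4.09, 4.19 and 4.03 in the wild type, without overlap, and differed by 0.22 (SE 0.09, unadjusted p = 0.0459, adjusted p = 0.9999, limma). At the other 2 probe sets the groups overlapped, with differences of 0.17 (SE 0.20) and 0.08 (SE 0.14).

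Mlana, a melanosomal membrane protein that takes part in the maturation of the fibrillar matrix, read 6.39, 6.09 and 5.96 in mutant arrays, against 5.03, 5.70 and 5.07 in wild type arrays. All mutant arrays lay above all wild type arrays. The difference was 0.88 (SE 0.21, unadjusted p = 0.00367, adjusted p = 0.9999, limma), or 1.84-fold. Of the 14 probe sets this one had the smallest p, and 137 probe sets of the whole table had a smaller one. Within pairs Mlana differed by 1.36, 0.39 and 0.89.

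Among the genes of the melanosome membrane, Gpr143, the receptor whose loss causes ocular albinism, read 4.83, 4.87 and 4.87 in mutant arrays and 4.64, 4.62 and 4.67 in wild type arrays. The difference of 0.21 (SE 0.08, unadjusted p = 0.0344, adjusted p = 0.9999, limma) was small, but the spread was smaller still, with an SD of 0.02 in each group. Within pairs it was 0.19, 0.25 and 0.20. The levels lie at the overall median of 4.76, so background limits this value too.

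Oca2, which encodes an ion transport protein of the melanosome and underlies the pink-eyed dilution coat colour, read 5.58, 5.59 and 5.69 in mutant arrays, against 5.54, 5.50 and 5.03 in wild type arrays. Wild type replicate 3 alone was low. The difference was 0.26 (SE 0.15, unadjusted p = 0.120, limma), 0.10 without wild type replicate 3 and 0.06 without both arrays of replicate 3. The gap between the lowest mutant and the highest wild type array was 0.03.

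Slc45a2, a transporter of the melanosome whose loss gives the underwhite coat colour, differed by 0.16 (SE 0.10) at its brighter probe set, where mutant arrays read 5.44, 5.50 and 5.33 and wild type arrays 5.37, 5.17 and 5.24. At its other probe set it differed by -0.04 (SE 0.10). The groups overlapped at both.

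Mitf did not separate the groups. Its brighter probe set read 5.66, 5.39 and 5.37 in mutant arrays, against 5.10, 5.33 and 5.65 in wild type arrays, a difference of 0.11 (SE 0.16) that was 0.56, 0.06 and -0.28 within pairs. Its other probe set averaged 3.20 ± 0.13 in mutant and 3.07 ± 0.08 in wild type arrays (SD, n = 3 each) and differed by 0.12 (SE 0.10). The groups overlapped at both. Mitf has several alternative starts, and which of them these probe sets read is not annotated here.

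**Figure D2:**
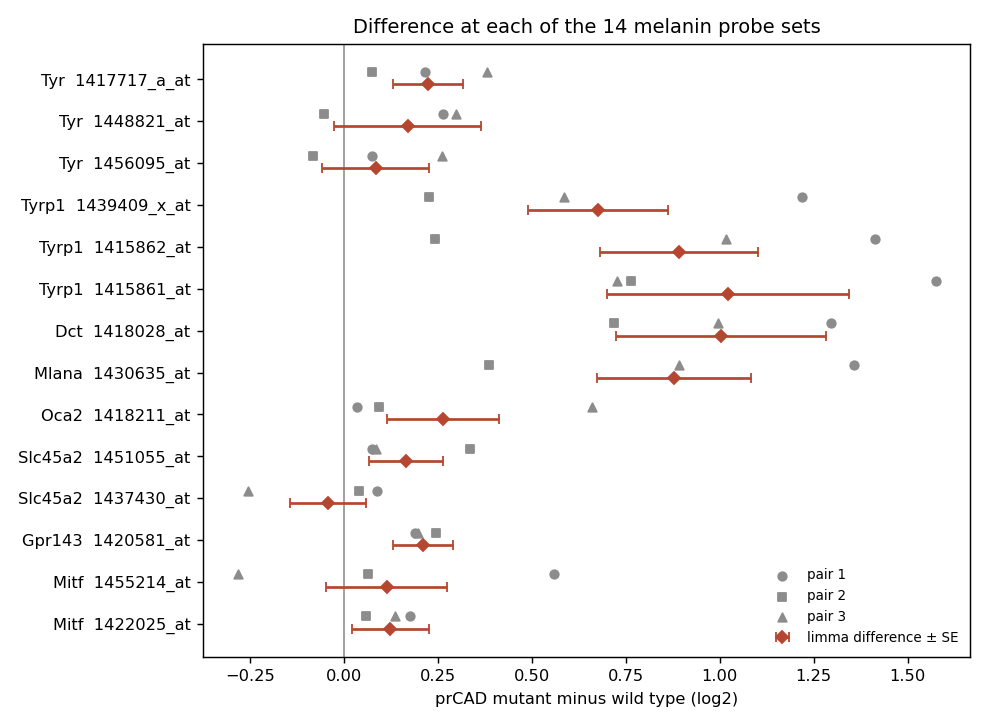
Difference of prCAD mutant minus wild type in log2 units at each of the 14 melanin probe sets, as the limma estimate with its SE (diamonds) and within each pair of same-numbered arrays (grey). The probe sets of Tyrp1, Dct and Mlana lie between 0.68 and 1.02, and the remaining ones between -0.04 and 0.26.

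At one probe set per gene, the brightest, the 8 melanin genes had a median difference of 0.24 (quartiles 0.20 and 0.73), beside 0.02 (quartiles -0.05 and 0.10) over 18193 genes. All 8 were higher in the mutant, as were 58.4% of all genes. The medians within pairs were 0.39, 0.24 and 0.48, and those of all genes were 0.04, 0.02 and 0.01. Among the 8 genes 5 had an unadjusted p under 0.05 on the higher side, against 2.33% of all genes.

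Other genes of the melanosome had smaller median differences. Of 23 measured genes of matrix, ion balance and maturation, 16 were higher and 7 lower, with a median of 0.06, and 0 passed the adjusted test. With an unadjusted p under 0.05 there were 2, both higher, Pmel and Gpnmb, against 2.33% of all genes on the higher side. Pmel, which forms the fibrils on which melanin is laid down, read 8.46, 7.94 and 7.65 in mutant arrays, against 7.06, 7.52 and 6.76 in wild type arrays, without overlap (difference 0.90, SE 0.26, unadjusted p = 0.00978, limma). Gpnmb, a glycoprotein related to Pmel that macrophages make as well, read 6.73, 6.23 and 6.23 in mutant arrays and 5.44, 5.93 and 5.51 in wild type arrays, again without overlap (difference 0.77, SE 0.19, unadjusted p = 0.00464, limma). These lay within the range of 0.68 to 1.02 at the probe sets of Tyrp1, Dct and Mlana. The second probe set of Gpnmb, a dim one, differed by 0.04. Of the complexes that sort cargo to melanosomes and other organelles, Bloc1s3 differed by 0.26 (SE 0.12) and Hps6 by 0.18 (SE 0.11).

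Transport genes, which move melanosomes along the cytoskeleton, had a median of 0.01 over 9 genes, of which 5 were higher and 4 lower, and 0 had an unadjusted p under 0.05. Rabggta differed by 0.19 (SE 0.09), Rab27a by 0.20 (SE 0.10), Mlph by 0.22 (SE 0.17) and Myo7a by 0.12 (SE 0.09). Regulators of pigment type and of melanocytes had a median of 0.06 over 16 genes, of which 11 were higher and 5 lower, again with 0. The 5 lower ones, named after their values were seen, were Mgrn1, Mc1r, Kitl, Snai2 and Kit, at -0.12 to -0.08. Ednrb, an endothelin receptor, differed by 0.34 (SE 0.16), its ligand Edn3 by 0.25 (SE 0.16), and the transcription factors Sox10 by 0.12 (SE 0.09) and Pax3 by 0.12 (SE 0.10). At dimmer probe sets Ednrb differed by 0.09 and 0.07 and Edn3 by 0.05, 0.26 and 0.02. There Sox10 differed by -0.04 and 0.08 and Pax3 by 0.05 and 0.21.

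Known targets of Mitf outside the 8 genes had a median of 0.20 over 10 genes, of which 9 were higher and 1 lower, and 4 of them had an unadjusted p under 0.05 on the higher side, against 2.33% of all genes. The median depended on the probe sets: it was 0.08 when the probe sets of each gene were averaged and 0.45 over the 7 genes left without _x_at, _s_at and _a_at probe sets. Besides Pmel and Gpnmb these were Trpm1 and Met. Trpm1, a cation channel of melanocytes and, in the retina, of ON bipolar cells, read 6.71, 6.21 and 6.56 in mutant arrays and 5.80, 6.05 and 5.86 in wild type arrays (difference 0.59, SE 0.15). Its other 3 probe sets, all dimmer, differed by 0.02, 0.16 and 0.07. Met, a growth factor receptor, differed by 0.45 (SE 0.18) at one probe set and by -0.27 (SE 0.14) at its other. Best1, a chloride channel of the pigment epithelium and also a target of Mitf, differed by 0.01 (SE 0.10).

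The genes with the most similar profiles over the 6 arrays, each profile centred on its own mean and compared by the root mean square difference, included 3 of these pigment genes. Nearest to Tyrp1 were Dcn (0.08), a matrix proteoglycan of connective tissue, Gpnmb (0.09) and Trpm1 (0.12). Nearest to Mlana were Gpnmb (0.10), the muscle protein gene Pdlim3 (0.12) and Ctss (0.13), a lysosomal protease of macrophages and microglia. Nearest to Dct were Serpina3n (0.10), a protease inhibitor of reactive glia, Pmel (0.13) and Gnb3 (0.14), a transducin subunit of cones. The likeness was not limited to pigment genes, and none of these nearest genes was among the pigment epithelium markers described below. Which cells these transcripts came from was not tested. The profiles of Oca2, Slc45a2 and Mitf spanned 0.66, 0.34 and 0.56 over the 6 arrays, where those of Tyrp1, Mlana and Dct spanned 1.22, 1.36 and 1.80. Their nearest genes were Mpp6, Iffo2 and Car5b for Oca2, Map2k3, Wfdc15b and Krt27 for Slc45a2, and Cyp2j6, Il10 and Nup210 for Mitf, at 0.03 to 0.06.

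**Figure D3:**
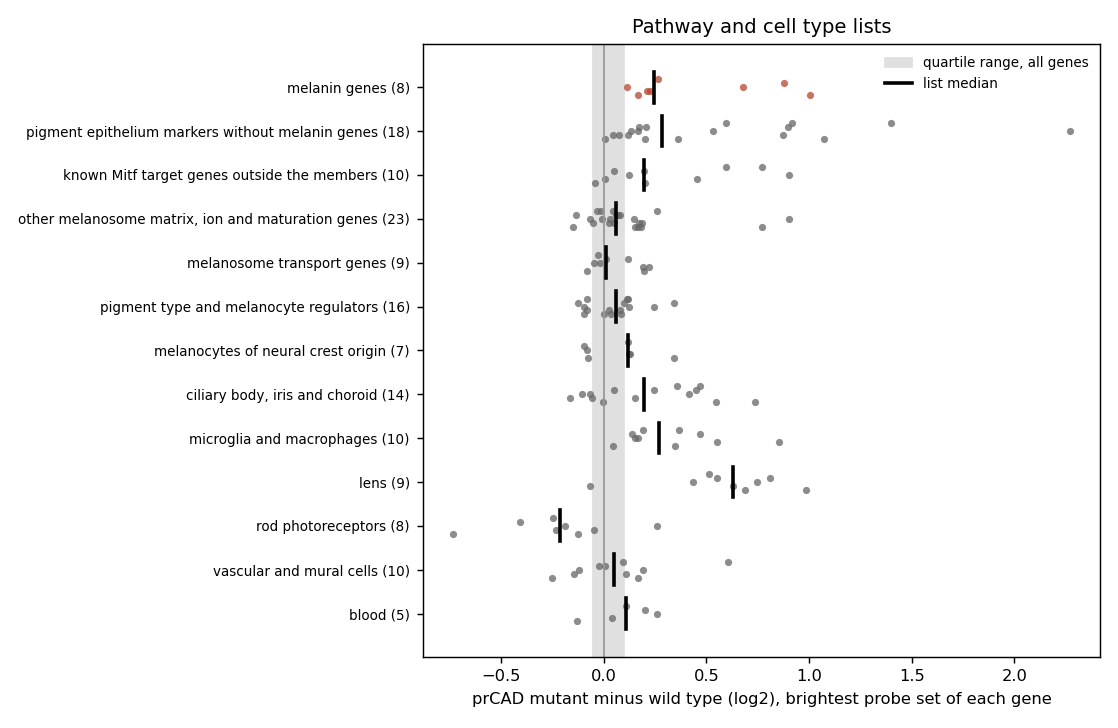
Difference of prCAD mutant minus wild type in log2 units for every measured gene of the melanin list and of the other pathway and cell type lists, one point per gene at its brightest probe set, with list medians as black bars and the quartile range of all genes in grey. The melanin genes (median 0.24), the other pigment epithelium markers (0.28) and the microglia and macrophage markers (0.27) lie at like positions. Close to them are the known Mitf targets (0.20) and the ciliary body, iris and choroid markers (0.20). The lens genes (0.63) lie further to the right, and the other melanosome lists near 0.

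Markers of the pigment epithelium that play no part in melanin were higher in the mutant arrays too. Of 18 measured genes all 18 had a higher mean, against 58.4% of all genes, and 10 did not overlap, against 5.89%. At an unadjusted p under 0.05 there were 8, all higher, against 2.33% of all genes on the higher side. In this list 0 passed the adjusted test. The median difference was 0.28. Sulf1, an extracellular sulfatase, differed by 0.87 (SE 0.14, unadjusted p = 4.11e-04, limma). At its dimmer probe sets Sulf1 differed by 0.54 (SE 0.14) and -0.12 (SE 0.18). Kcnj13, a potassium channel of the epithelium, differed by 0.60 (SE 0.10) and Rgr, a retinal-binding opsin, by 1.40 (SE 0.39). Slc6a20a, an amino acid transporter, differed by 0.92 (SE 0.19), at a level below the overall median.

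The mean log2 level of the 18 markers was 6.01, 6.20 and 5.95 in mutant arrays, against 5.71, 5.65 and 5.13 in wild type arrays, a shift of 0.56. The groups did not overlap, and wild type replicate 3 was lowest. The shift was uneven among markers that define the epithelium: Rpe65, the isomerase of the visual cycle, differed by 1.07 (SE 0.39), Rdh5 by 0.90 (SE 0.28) and Ttr, transthyretin, by 2.27 (SE 0.78), but Lrat by 0.13 (SE 0.10) at a level below the overall median and Best1 by 0.01 (SE 0.10).

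Taken relative to the mean of these markers on the same array, with all arrays kept, the melanin genes no longer separated the groups to the higher side. Relative to it, Dct read 2.89, 2.52 and 2.16 in mutant arrays, against 1.90, 2.35 and 1.98 in wild type arrays, so that the groups overlapped. Its difference was 0.45 (exact permutation p = 0.2, two-sided), that of Mlana was 0.32 (p = 0.5) and that of Tyrp1 was 0.12 (p = 0.7). The other Tyrp1 probe sets kept more, 0.33 at 1415862_at (exact permutation p = 0.5) and 0.46 at 1415861_at (p = 0.3), with overlap. Each relative difference is the deposited difference less the marker shift of 0.56, so any gene with a smaller difference turns negative by construction. In the 5 genes with small differences the relative values were thus lower in the mutant, with differences of -0.29 in Oca2, -0.33 in Tyr, -0.35 in Gpr143, -0.39 in Slc45a2 and -0.44 in Mitf. The groups did not overlap in Oca2, Slc45a2 and Gpr143 (exact permutation p = 0.1 each, the smallest possible). The marker mean itself did not overlap between the groups, so this is not a result about these genes alone. With Ttr left out of the markers, a choice made after seeing the data, Dct differed by 0.55, Mlana by 0.42 and Tyrp1 by 0.22. The other Tyrp1 probe sets then differed by 0.43 and 0.56. Oca2 then differed by -0.19 (exact permutation p = 0.2) and Gpr143 by -0.25 (p = 0.3), now with overlap, and Slc45a2 by -0.29 (p = 0.1). With markers above the overall median as the scale, Gpr143 overlapped as well (exact permutation p = 0.2). Against Rpe65, Rdh5, Rgr and Stra6 alone, also chosen after seeing the data, Dct differed by 0.07, Mlana by -0.05 and Tyrp1 by -0.26. The other Tyrp1 probe sets differed by -0.04 and 0.09 on this scale, whose marker shift was 0.93. Oca2 differed by -0.67 on it, Tyr by -0.71, Gpr143 by -0.72, Slc45a2 by -0.77 and Mitf by -0.82. The size of the relative difference therefore depended on which markers served as the scale. It also depended on wild type replicate 3, in which the markers were lowest. Without that array, left out after seeing the data, the difference relative to all 18 markers was -0.15 in Gpr143, -0.11 in Mitf, -0.22 in Slc45a2, -0.19 in Tyr and -0.27 in Oca2, and 0.28 in Tyrp1, 0.40 in Mlana and 0.40 in Dct. Tyrp1 turned to -0.10 without mutant replicate 1 and to -0.06 without wild type replicate 1, and the difference of Mlana was 0.10 without wild type replicate 1. In Dct the groups did not overlap, with the mutant higher, without mutant replicate 3 (0.63) or without wild type replicate 2 (0.58). The same held without both arrays of replicate 3 (0.58).

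**Figure D4:**
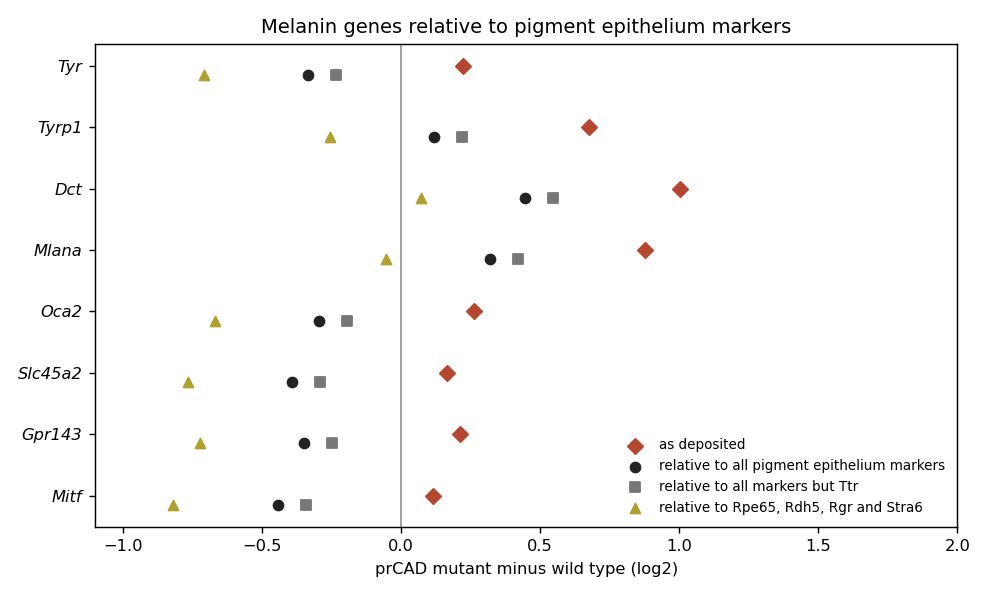
Difference of prCAD mutant minus wild type in log2 units for the brightest probe set of each melanin gene, as deposited (diamonds) and relative to 3 choices of pigment epithelium markers on the same array. As deposited all 8 lie above 0, and relative to all 18 markers only Dct, Mlana and Tyrp1 do. Their deposited differences exceed the marker shift of 0.56.

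The pair with the largest difference varied among the genes, which is given as a count with no test. Of the 8 melanin genes 4 differed most in pair 1, namely Tyrp1, Dct, Mlana and Mitf, 2 in pair 2 and 2 in pair 3. Those in pair 3 were Tyr and Oca2. Pmel, Gpnmb and Trpm1 differed most in pair 1. Of the 18 pigment epithelium markers 3 differed most in pair 1 and 11 in pair 3, beside 37.3% and 35.3% of all genes. Kcnj13 was among those in pair 1, at 0.81, 0.39 and 0.58 within the pairs. Pair 1 was not particular to pigment genes. It held the largest difference in 7 of 10 microglia and macrophage markers and 6 of 10 vascular and mural markers. It did so in 6 of 14 markers of ciliary body, iris and choroid, 2 of 8 rod, 1 of 5 blood, 1 of 7 melanocyte and 0 of 9 lens markers. Rpe65 differed by 0.22, 1.48 and 1.52 within the pairs and Rgr by 0.71, 1.32 and 2.17, where Mlana differed by 1.36, 0.39 and 0.89 and Pmel by 1.40, 0.42 and 0.89.

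**Figure D5:**
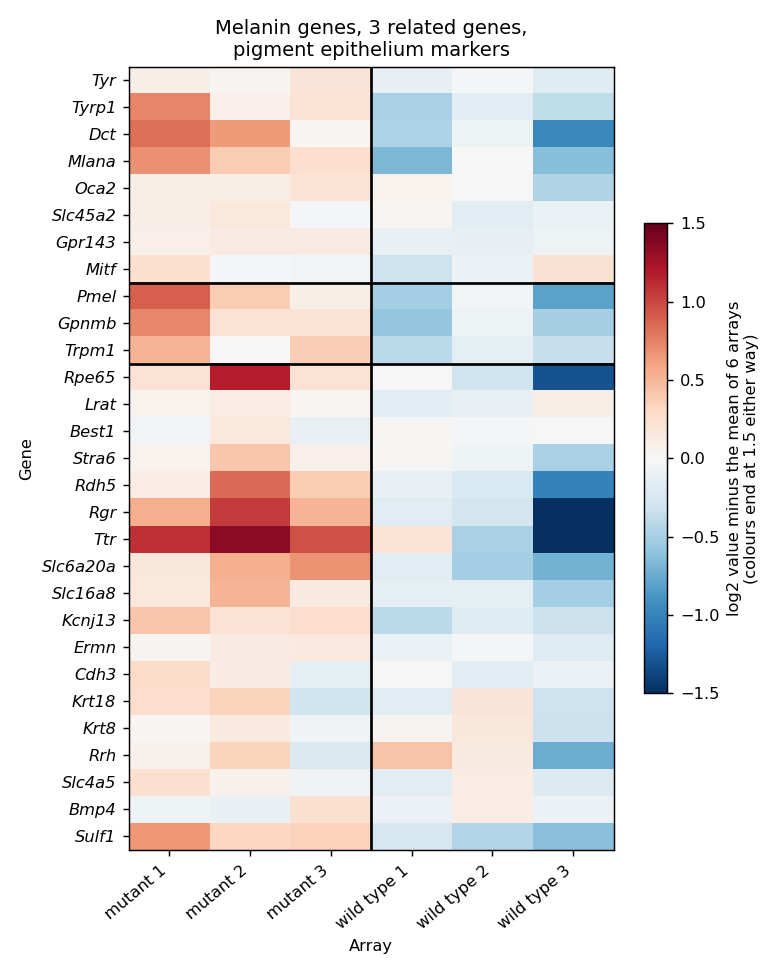
Log2 value minus the mean of the 6 arrays for the melanin genes (top block), Pmel, Gpnmb and Trpm1 (middle block) and the pigment epithelium markers (bottom block), in mutant arrays on the left and wild type arrays on the right, with colours ending at 1.5 either way. Tyrp1, Dct, Mlana, Pmel and Gpnmb are highest in mutant replicate 1, as are the markers Sulf1, Kcnj13, Slc4a5 and Cdh3. Rpe65, Rdh5 and Rgr are highest in mutant replicate 2 and lowest in wild type replicate 3, where Dct and Pmel are lowest too.

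Markers of other cells that a dissected retina can carry moved to differing degrees, and their part in the melanin differences was not tested. Markers of melanocytes of neural crest origin averaged 5.13 to 5.15 over 7 genes in mutant arrays and 5.04 to 5.12 in wild type arrays, with a median difference of 0.12 and 0 genes at an unadjusted p under 0.05. Markers of ciliary body, iris and choroid averaged 5.16 to 5.24 over 14 genes in mutant arrays and 4.89 to 5.12 in wild type arrays (median difference 0.20, 9 genes higher and 5 lower, 2 at an unadjusted p under 0.05). Among these, Dcn differed by 0.74 (SE 0.22) and Cpxm2 by 0.47 (SE 0.17). Of the 5 lower ones only Des, named after its values were seen, did not overlap, at -0.16 (SE 0.09). Microglia and macrophage markers averaged 5.13 to 5.24 over 10 genes in mutant arrays and 4.80 to 4.91 in wild type arrays. The groups did not overlap in this average, and the median difference was 0.27. All 10 genes had a higher mean, against 58.4% of all genes, and 5 did not overlap, against 5.89%. At an unadjusted p under 0.05 there were 4, all higher, among them Ctss (0.85, SE 0.18) and C1qc (0.47, SE 0.10). Of all genes 2.33% had such a p on the higher side. Lens markers averaged 9.79 to 10.72 over 9 genes in mutant arrays and 9.01 to 10.48 in wild type arrays, with overlap.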

How the data were processed

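The values are log2 expression values that the authors computed by RMA, as the labels' processing notes name it (per the labels, no version). RMA removes differences between arrays in total signal. They are used here as deposited. Of 45101 probe sets 64 controls were left out. Arrays were grouped by their titles. Probe sets were named by the platform annotation (34945 probe sets with 1 symbol, 932 with several, 9160 not named here), and a gene in a list stands at its brightest probe set. Of 150.0 list genes 12 had no probe set of their own name.

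The test was limma 3.58.1 (R 4.3.3) with group as the one term, and p-values were adjusted by Benjamini-Hochberg over 45037 probe sets at 0.05. Unadjusted p-values are descriptive. Replicate numbers were read as pairs, since deviations of same-numbered arrays correlated at 0.477, 0.469 and 0.563, though what a number stands for is not labelled. The alternatives were that block, dim filters, normalization, variance and array weighting, probe set choice and left-out arrays. The named genes were all members, up to 4 per list by p, and the 3 nearest profiles per member above the overall median. Members and lists were chosen with earlier results of these data known. The fit was tested on simulated data. Nothing in the labels says that pools came from separate litters or days, so p-values measure the spread between these pools.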

Additional observations from a re-analysis of the deposited data

How the results depend on the processing

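No melanin probe set passed the adjusted test on group alone or under any of the alternatives run. Over all probe sets 15 passed with the replicate block, 25 with array weights, 16 without both arrays of replicate 3, 3 without _x_at, _s_at and _a_at probe sets, and 2 to 9 with single arrays left out, beside 5. Of the 8 genes, 5 had an unadjusted p under 0.05, beside 3.02% of all probe sets tested. With the replicate block 4 did (7.6% of all probe sets), with trend and robust fit 3 (2.94%), without both arrays of replicate 3 also 3 (7.68%), and with single arrays left out 3 to 4 (2.04% to 6.56%). Without _x_at, _s_at and _a_at probe sets 3 of 6 did (3.02%), and with the strict dim filter 2 of 2 (3.46%). The strict dim filter kept only Tyrp1 and Dct, at a median of 0.84. Directions turned only at small differences. Tyr 1448821_at ran from -0.0198 (without mutant replicate 3) to 0.314 with single arrays left out. Tyr 1456095_at ran from -0.0506 (without mutant replicate 3) to 0.203, and was -0.0400 with array weights and -0.00397 without both arrays of replicate 3. Slc45a2 1437430_at ran from -0.0966 to 0.0312 (without wild type replicate 3), and was 0.0333 with array weights and 0.0638 without both arrays of replicate 3. The brighter Mitf probe set ran from -0.0150 (without wild type replicate 1) to 0.259 with single arrays left out, and was 0.311 without both arrays of replicate 3. The cause was not tested. Dct ran from 0.77 without wild type replicate 3 to 1.24 without mutant replicate 3, and Mlana from 0.75 to 1.09. The replicate block changed no call on a melanin gene. Levels near the overall median, as of Tyr and Gpr143, limit what these arrays can show.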

Other observations

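Dct is the one melanin gene on the chromosome of Cdhr1, chromosome 14, and 1554 genes lie between them in the order of GRCm38.p6. Asip, the agouti gene, was not analysed here.

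Among vascular and mural markers Vwf differed by 0.61 (SE 0.16) and Cdh5 by -0.25 (SE 0.11), at a list median of 0.05 over 10 genes. Blood markers had a median of 0.11 over 5 genes, with Hba-a2 at 0.26 (SE 0.15). Rod photoreceptor markers had a median of -0.21 over 8 genes, with Sag, rod arrestin, at 0.26 (SE 0.09) and Prph2, a protein of disc rims, at -0.73 (SE 0.37). Lens markers had a median of 0.63 over 9 genes, and 0.07, 0.17 and 1.51 within the pairs.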
